A study of Mus musculus with 8 samples.

Results

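The genes described here are 8 members of the Notch pathway, the receptors Notch1, Notch2 and Notch3, the nuclear mediator Rbpj, and Hes1, Dtx1, Dtx4 and Nrarp, which are known as direct Notch targets. They were chosen by symbol, with earlier results of these data known, so shares of members beside shares of all genes are descriptions. Every probe set that the array's annotation gives to such a symbol and to no other was taken, 16 of 45037 that are not controls. As genes they are 8 of 18193 that had a probe set of their own, and 7 of the 8 were bright enough to be among the 11957 genes tested. Notch3 was the one left out, because neither of its probe sets rose above the array median on any array.

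The study asked how loss of either of a pair of related transcription factors changes transcription in early lymphoid progenitors of mouse bone marrow. RNA was read on 8 microarrays, 2 of wild-type (WT) cells, 2 of cells without HEB (HEB-KO, gene Tcf12) and 4 of cells without E2A (E2A-KO, gene Tcf3). All mice were C57bl/6 of 10 to 13 weeks, and no source used here says how the knockout alleles were made. The sorted cells lacked lineage markers and LY6D and carried FLT3 and CD127, that is, they were common lymphoid progenitors (CLP) before the surface protein LY6D appears. Each sort pooled the marrow of several mice, and it is not settled that every E2A-KO array had its own sort. The p-values below thus reflect how arrays of pooled cells vary, not how mice vary.

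Notch receptors are single-pass membrane proteins that are cut when a Delta or Jagged ligand on a neighbouring cell pulls on them, and the freed intracellular part enters the nucleus. There it joins RBPJ, a DNA-binding protein that otherwise holds targets silent, and recruits Mastermind proteins and acetyltransferases to switch those targets on. In lymphoid progenitors Notch1 is best known as the receptor that starts the T lineage in the thymus, while Notch2 is known for its part in marginal zone B cells. E2A and HEB bind DNA at E-box sequences, as dimers.

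The labels were checked first. Tcf3 read 7.76 and 7.98 on the WT arrays, 8.57 and 8.44 on the HEB-KO arrays, and 4.28, 3.71, 4.05 and 3.90 on the E2A-KO arrays (log2 intensity at its brightest probe set). Tcf12 read 8.85 and 8.76 in WT, 7.10 and 6.49 in HEB-KO, and between 8.52 and 8.64 in E2A-KO cells. Each targeted gene was lowest on the arrays labelled as lacking it, although the Tcf12 difference from WT missed the threshold over all genes (limma adjusted p = 0.328). Of the genes of the gate, Flt3 read 10.12 to 11.05 on all arrays, whereas Il7r, which encodes CD127, read 10.50 to 10.91 with E2A present and 7.89 to 9.04 without it. Ly6d transcript was uneven within genotypes, at 3.53 and 7.83 in WT, 7.52 and 3.63 in HEB-KO, and 6.75, 4.48, 4.26 and 6.88 in E2A-KO cells.

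Notch1 was the member that fell without E2A. Its brighter probe set, 1418634_at, read 11.63 and 11.92 in WT, 11.55 and 11.21 in HEB-KO, and 10.11, 9.31, 9.83 and 9.49 in E2A-KO cells. All 4 E2A-KO arrays lay below all 4 others by more than a full log2 unit, and the WT and HEB-KO arrays lay close together with both HEB-KO arrays below both WT arrays. The group means were 11.77 ± 0.20 (SD, n = 2) for WT, 11.38 ± 0.25 (n = 2) for HEB-KO and 9.68 ± 0.35 (n = 4) for E2A-KO cells. Without E2A, Notch1 fell by 2.09 (log2) against WT, a 4.26-fold change (SE 0.27, 95% interval -2.70 to -1.48, limma with Benjamini-Hochberg adjusted p = 0.0195). It stood at place 19 of 11957 genes by p. It was also the only tested member to pass, 1 of 7, where 0.443% of all genes tested passed in either direction and 0.393% passed as lower. In such bulk samples fewer cells carrying a transcript and less of it per cell cannot be told apart.

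The size of the Notch1 difference was similar without either WT array, at -2.23 without WT 1 and -1.95 without WT 2, but the adjusted p was then 0.130 and 0.236. Those fits have 1 WT array, which is assumed to vary like the other genotypes. The limma adjusted p was 0.386 with the hybridization control level of each array as a covariate (difference -1.75). It was 0.0976 with the replicate numbers as a block (-2.06) and 0.0556 for the mean of both probe sets (-1.36). The control level was 11.32 to 12.51 on the E2A-KO arrays and 11.23 and 10.07 on the WT arrays. On the HEB-KO arrays it was 10.11 and 11.42. It was thus higher on every E2A-KO than on every WT array and overlapped between E2A-KO and HEB-KO. Control level and genotype vary together in part, and the part of each in the Notch1 difference was not settled.

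Markers of other cells were read beside the fall of Notch1, each list as the mean log2 intensity of its named genes. The 6 plasmacytoid dendritic cell markers averaged 6.17 to 7.17 on the E2A-KO arrays and 7.43 to 8.04 on the other 4. The 5 genes of the CLP list (Flt3, Il7r, Kit, Ly6d and Cd93) averaged 7.36 to 8.30 and 8.36 to 9.54. In that list Ly6d encodes a protein that was sorted against, and Kit and Cd93 are not part of the sort described above. The genes of these lists did not all differ alike. Ccr9 (2.74 to 4.06 without E2A, 7.05 to 9.19 otherwise) and Cox6a2 (6.55 to 7.43 and 8.45 to 9.18) were lower on all E2A-KO arrays, whereas Siglech (4.81 to 6.95 and 4.52 to 5.31), Klk1, Irf8 and Bst2 overlapped. Of the CLP list Il7r, Kit and Cd93 were lower on all E2A-KO arrays, and Flt3 and Ly6d overlapped. The 8 myeloid markers ranged from 5.02 to 7.89, highest on HEB-KO 2, and the 3 named erythroid markers of 5 from 3.89 to 5.78, highest on E2A-KO 1. The mean of the myeloid markers was higher on both HEB-KO arrays (6.71 and 7.89) than on both WT arrays (5.34 and 6.18). In this mean the E2A-KO arrays overlapped with each of those genotypes. S100a8, S100a9, Ltf, Camp and Mpo were higher on both HEB-KO than on both WT arrays, Elane was lower, and Csf1r and Itgam overlapped. Csf1r read 7.56 to 8.10 on the E2A-KO arrays and 8.55 to 9.58 on the other 4. The part of these markers in the Notch1 difference was not tested.

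The dimmer Notch1 probe set, 1418633_at, differed in the same direction by less. It read 6.88 and 7.52 in WT, 7.51 and 6.76 in HEB-KO, and 6.55, 6.36, 6.61 and 6.74 in E2A-KO cells. Again no E2A-KO array reached the lowest of the others, but the nearest values, 6.76 and 6.74, almost touched. The difference from WT was -0.63 (SE 0.27), which did not pass over all probe sets (adjusted p = 0.482). At the brighter probe set the same fit over all probe sets gave an adjusted p of 0.0430, and that was the 1 call among the 16 member probe sets, where 0.0822% of all probe sets were called. In HEB-KO against WT and in E2A-KO against HEB-KO 0 member probe sets were called by limma, where 0% and 0.00222% of all were, and 0 and 3 had an unadjusted p under 0.05, where 3.12% and 11.5% of all did. In E2A-KO against WT 4 had such a p, where 10.2% of all did. The sources used here do not give the parts of the Notch1 transcript that the probe sets read.

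In HEB-KO cells the Notch1 difference from WT was -0.40 (SE 0.31, 95% interval -1.10 to 0.31, adjusted p = 1), so a fall of up to 1.10 is within its error. Set directly against HEB-KO cells, E2A-KO cells differed by -1.69 at Notch1 (SE 0.27, 3.24-fold, 95% interval -2.31 to -1.08), at place 24 of 11957 by p. That difference missed the threshold (adjusted p = 0.0732), and it passed at 0.0222 when the variance was modelled with a trend and robustly. The E2A-KO arrays that enter this difference also enter the one from WT, so these are not separate observations. The actin 3′ minus 5′ signal, a sign of RNA quality, was 3.86 to 4.78 (log2) on the E2A-KO arrays, 3.37 and 3.58 on the HEB-KO arrays and 4.45 and 3.84 on the WT arrays. It was thus higher on every E2A-KO than on every HEB-KO array and overlapped with WT, and its part in the Notch1 differences was not tested.

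**Figure D1:**
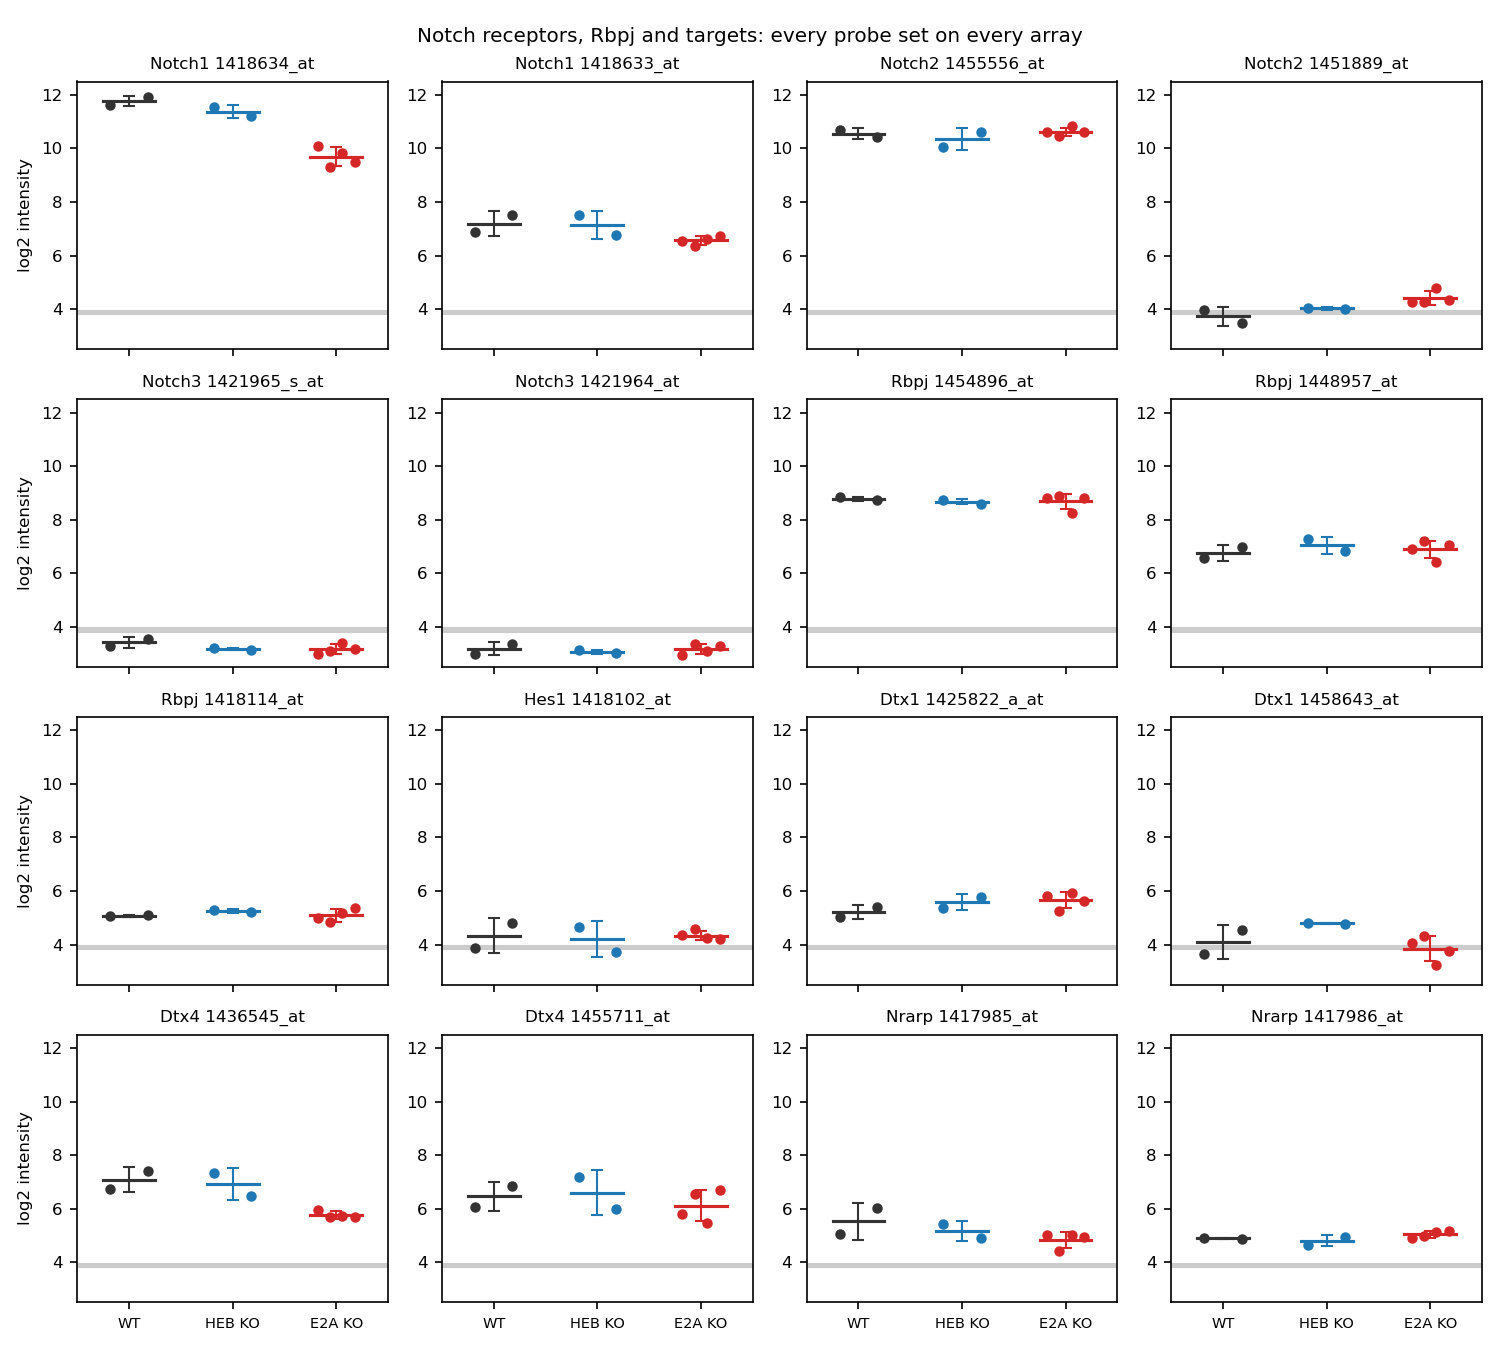
Log2 intensity of the 16 probe sets of the 8 genes on each of the 8 arrays. Points are arrays, bars are group means with SD, and the grey band spans the array medians. Notch1 1418634_at and Dtx4 1436545_at have all 4 E2A-KO points below the WT and HEB-KO points, and both Notch3 probe sets lie under the band.

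Notch2, the other receptor with a strong signal, showed no such difference at its bright probe set. Probe set 1455556_at read 10.69 and 10.42 in WT, 10.06 and 10.63 in HEB-KO, and 10.60, 10.48, 10.82 and 10.60 in E2A-KO cells. The 3 genotypes overlapped throughout. The E2A-KO difference from WT was 0.07 (95% interval -0.46 to 0.60, adjusted p = 0.912), an interval that leaves out a fall of the size seen for Notch1. For HEB-KO cells the difference was -0.21 (-0.82 to 0.40).

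The second Notch2 probe set, 1451889_at, was dim, at 3.99 and 3.49 in WT, 4.06 and 4.0 in HEB-KO, and 4.28, 4.26, 4.79 and 4.35 in E2A-KO cells. Array medians lay between 3.82 and 3.95, so these readings are near the middle of all probe sets. The E2A-KO arrays were all above the WT arrays (difference 0.68, SE 0.22), but over all probe sets the adjusted p was 0.372. The direction at this probe set is thus opposite to that of Notch1, at a level where a probe set carries little signal.

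Notch3 lay under the array median everywhere. Probe set 1421965_s_at read 2.97 to 3.56 and 1421964_at read 2.94 to 3.35 over the 8 arrays, with no genotype apart from the others except that both HEB-KO readings of the former were just below WT. Notch4, the remaining mouse Notch receptor, was as dim, with its 3 probe sets between 2.62 and 3.90 and none above its array median. For both receptors these arrays give no level that stands out from dim signal.

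The promoters of the receptors that were measured well are shown because E2A binds E-boxes and RBPJ binds the core TGGGAA, so a reader can see the bases next to the start of each gene. Sequences are from RefSeq on GRCm38.p6, 5′ to 3′ on the gene's own strand, and are the 250 bases before the start. Capitals mark matches on either strand to TGGGAA or to the E-box CANNTG. Notch1 lies at chr2:26503823-26504072 on the minus strand and Notch2 at chr3:98013288-98013537 on the plus strand.
Notch1: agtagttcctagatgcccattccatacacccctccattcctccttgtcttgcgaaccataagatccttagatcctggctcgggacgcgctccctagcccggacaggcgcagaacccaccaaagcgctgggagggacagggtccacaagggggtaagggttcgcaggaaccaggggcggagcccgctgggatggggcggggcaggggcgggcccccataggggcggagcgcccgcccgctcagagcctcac
Notch2: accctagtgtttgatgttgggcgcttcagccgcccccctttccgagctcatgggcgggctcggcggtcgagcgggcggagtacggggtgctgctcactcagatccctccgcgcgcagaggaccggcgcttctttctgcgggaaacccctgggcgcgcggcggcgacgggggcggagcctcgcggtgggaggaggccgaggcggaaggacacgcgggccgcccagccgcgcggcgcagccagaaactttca
Neither window holds a match, and neither do those of Notch3 and Dtx1. Over 32817 promoter windows of this length, 66.2% hold CANNTG and 21.6% hold TGGGAA. The E-box forms CAGCTG and CACCTG, which are also counted in CANNTG, occur in 13.0% and 17.2% of the windows. These are matches of letters, and no binding was measured.

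Rbpj, which carries the Notch signal on DNA, had no called difference between the 3 genotypes. Its brightest probe set, 1454896_at, read 8.83 and 8.73 in WT, 8.75 and 8.60 in HEB-KO, and 8.81, 8.88, 8.25 and 8.79 in E2A-KO cells. Apart from the single low value of E2A-KO 3, all arrays lay within 8.60 to 8.88. Its difference from WT was -0.10 in E2A-KO cells (95% interval -0.63 to 0.43) and -0.10 in HEB-KO cells (-0.72 to 0.51). The dimmer probe sets differed from WT in E2A-KO cells by 0.13 at 1448957_at and 0.01 at 1418114_at, and in HEB-KO cells by 0.29 and 0.18. At 1418114_at both HEB-KO arrays (5.31 and 5.21) lay above both WT arrays (5.05 and 5.11). None of the 3 probe sets passed in any comparison.

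Rbpj has a promoter with matches to both motifs, and it is printed here as the member whose window holds the core bound by its own product. Of its 2 promoters in the RefSeq table, the one at chr5:53590096-53590345 on the plus strand reads as follows.
Rbpj: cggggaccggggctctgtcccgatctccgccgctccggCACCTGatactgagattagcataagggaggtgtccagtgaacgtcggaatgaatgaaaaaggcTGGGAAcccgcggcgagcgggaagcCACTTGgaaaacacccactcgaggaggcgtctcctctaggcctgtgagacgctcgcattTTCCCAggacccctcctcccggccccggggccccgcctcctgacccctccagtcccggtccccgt
It holds the RBPJ core at -149 to -144 and, on the other strand, at -65 to -60, counted from the start. It also holds the E-boxes CACCTG at -212 to -207 and CACTTG at -124 to -119. The second Rbpj promoter overlaps the first and has the latter core at -205 to -200 from its own start.

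Among the targets, only Dtx4 had, like Notch1, a probe set with all E2A-KO arrays below all WT and HEB-KO arrays. Dtx4 encodes a Deltex E3 ubiquitin ligase, a family that acts on Notch itself. Probe set 1436545_at read 6.75 and 7.41 in WT, 7.33 and 6.48 in HEB-KO, and 5.96, 5.67, 5.73 and 5.67 in E2A-KO cells. All 4 E2A-KO arrays lay below all 4 others, and they spread less (5.76 ± 0.14, n = 4) than WT (7.08 ± 0.46, n = 2) or HEB-KO arrays (6.91 ± 0.60, n = 2). The difference from WT was -1.32 (SE 0.29, 2.50-fold, 95% interval -1.99 to -0.66) and did not pass the threshold (adjusted p = 0.105). The difference from HEB-KO cells was -1.15 (SE 0.29, adjusted p = 0.152), and that of HEB-KO from WT was -0.17 (-0.94 to 0.60). With the hybridization control covariate the E2A-KO difference from WT was -0.69.

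The other Dtx4 probe set did not separate the genotypes. At 1455711_at the arrays read 6.07 and 6.85 in WT, 7.19 and 6.00 in HEB-KO, and 5.79, 6.55, 5.45 and 6.68 in E2A-KO cells. The groups overlapped, with a difference from WT of -0.35 (SE 0.46) without E2A. The mean of both probe sets gave -0.83.

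Notch1 and Dtx4 were thus 2 of the 7 tested members with all E2A-KO arrays below all WT and HEB-KO arrays, a pattern that 10% of all tested genes had.

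Nrarp, an ankyrin repeat protein that Notch switches on and that dampens Notch signalling, gave different pictures at its probe sets. At 1417985_at it read 5.04 and 6.02 in WT, 5.42 and 4.91 in HEB-KO, and 5.03, 4.40, 5.0 and 4.94 in E2A-KO cells. The E2A-KO arrays were below both WT arrays, the highest of them only just. The difference of -0.69 (SE 0.33, 95% interval -1.43 to 0.05) did not pass (adjusted p = 0.402). At 1417986_at all 8 arrays lay between 4.66 and 5.18, with a difference of 0.16. In HEB-KO cells the differences were -0.37 and -0.08.

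The Nrarp promoter window holds the palindromic E-box CACGTG at -108 to -103, and no RBPJ core. It holds neither CAGCTG nor CACCTG, and the share of all windows with CACGTG was not counted. The Nrarp window lies at chr2:25180508-25180757 on the plus strand.
Nrarp: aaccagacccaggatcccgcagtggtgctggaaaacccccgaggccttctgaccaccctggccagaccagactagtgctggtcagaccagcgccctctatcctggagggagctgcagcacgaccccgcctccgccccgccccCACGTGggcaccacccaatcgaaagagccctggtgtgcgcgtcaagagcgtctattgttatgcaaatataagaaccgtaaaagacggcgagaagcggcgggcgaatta
No promoter of Hes1 or Dtx4 is printed.

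Hes1, a repressor of the basic helix-loop-helix family and the best known Notch target, was dim and uneven within genotypes. It has 1 probe set here, which read 3.87 and 4.81 in WT, 4.67 and 3.74 in HEB-KO, and 4.35, 4.57, 4.23 and 4.21 in E2A-KO cells. The WT and HEB-KO arrays enclosed all E2A-KO values. Group means were 4.34 for WT, 4.20 for HEB-KO and 4.34 for E2A-KO cells, and the E2A-KO difference from WT was 0.00 with a 95% interval of -0.76 to 0.76. The interval is wide, and a change of up to 0.76 in either direction lies within it.

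Dtx1, a Deltex gene known as a Notch target in T-cell progenitors, read higher on average in both knockouts at its brighter probe set. At 1425822_a_at it read 5.02 and 5.40 in WT, 5.38 and 5.79 in HEB-KO, and 5.81, 5.27, 5.94 and 5.63 in E2A-KO cells. The groups overlapped. The differences from WT were 0.45 for E2A-KO (95% interval -0.13 to 1.04, adjusted p = 0.470) and 0.38 for HEB-KO cells (-0.30 to 1.06), and neither passed.

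The dimmer Dtx1 probe set behaved otherwise. At 1458643_at the arrays read 3.64 and 4.55 in WT, 4.81 and 4.77 in HEB-KO, and 4.05, 4.33, 3.25 and 3.75 in E2A-KO cells. Both HEB-KO arrays were above all others. The HEB-KO difference from WT was 0.69 (SE 0.39, adjusted p = 1), and E2A-KO cells differed from HEB-KO cells by -0.94 (SE 0.34, adjusted p = 0.363).

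Over the 16 probe sets, the E2A-KO arrays lay wholly below the WT arrays at 4 (both of Notch1, 1436545_at of Dtx4 and 1417985_at of Nrarp) and wholly above at 1, the dim one of Notch2. Over all probe sets those shares were 8.63% and 13.4%. The median difference over the 7 tested members was -0.10, beside -0.05 over all genes tested, with 5 members negative and 2 positive. At an unadjusted p under 0.05 there were 2 members, Notch1 and Dtx4, where 13.4% of all genes had such a p.

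No member was called in HEB-KO against WT by limma, and none had an unadjusted p under 0.05, where 0% of all genes were called and 2.61% had such a p. Of the 7 differences 6 were negative, with a median of -0.17 beside 0.09 over all genes. Both HEB-KO arrays lay below both WT arrays at 2 of 16 probe sets and above them at 3, where the shares over all probe sets were 15.6% and 18.7%. With 2 arrays a side the intervals are wide, so these values do not show that the genotypes were alike.

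Between E2A-KO and HEB-KO cells no member was called by limma either, where 0.117% of all genes were, and 2 members, again Notch1 and Dtx4, had an unadjusted p under 0.05, where 16.5% of all genes did. The E2A-KO arrays lay wholly below the HEB-KO arrays at 4 of 16 probe sets and wholly above at 1, where the shares over all probe sets were 10.9% and 12.5%. The median over the members was 0.00, beside -0.16 over all genes.

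**Figure D2:**
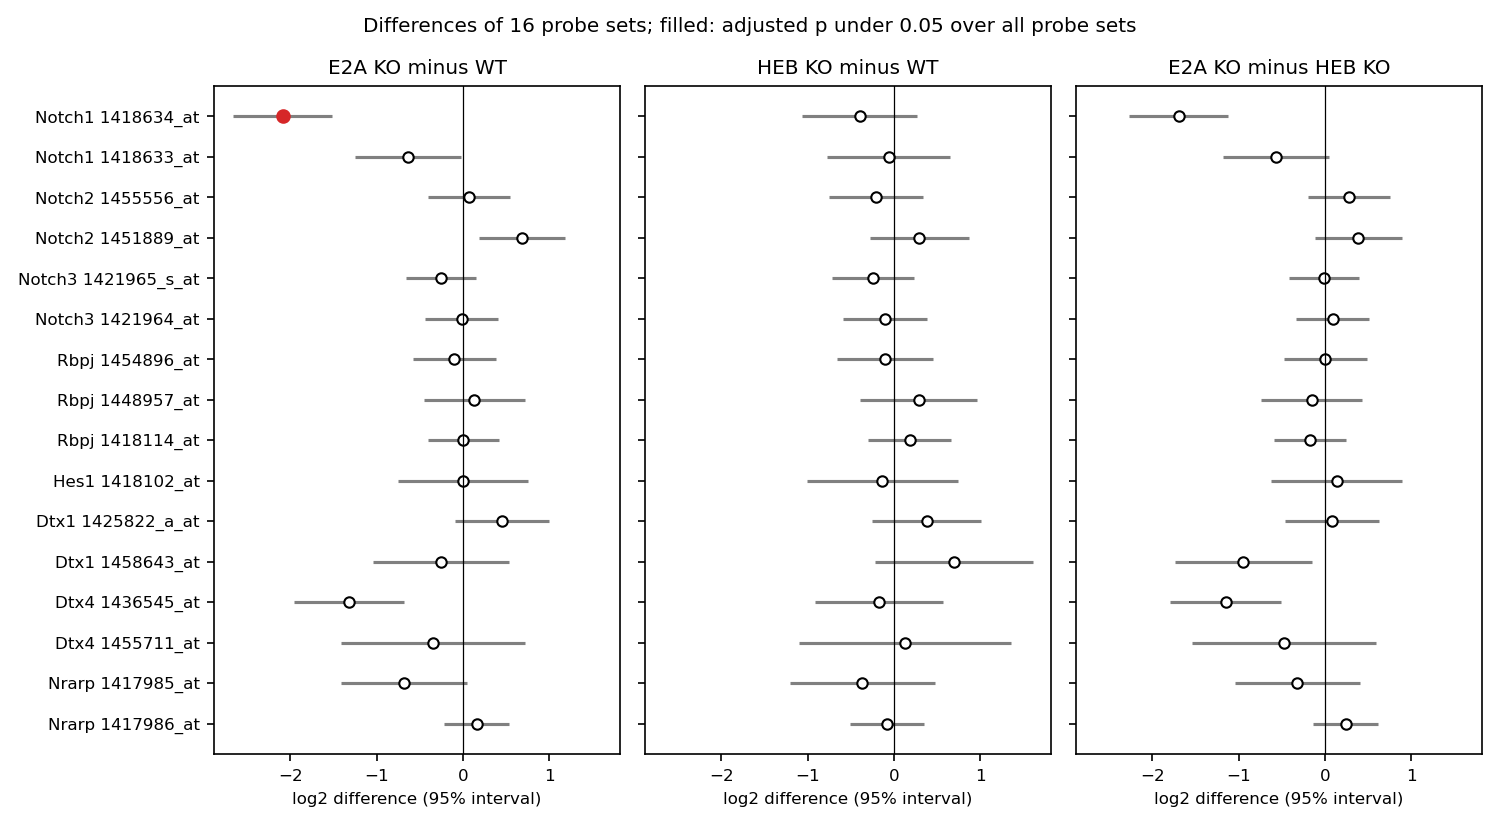
Log2 differences of the 16 probe sets with 95% intervals in the 3 comparisons, from the fit over all 45037 probe sets. The 1 filled point, Notch1 1418634_at in E2A-KO against WT at -2.09, is the only one with an adjusted p under 0.05.

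The members also differed between arrays of one genotype. Of the 14 member probe sets above the array median on at least 2 arrays, 9 read higher on WT 2 than on WT 1 and also higher on HEB-KO 1 than on HEB-KO 2, where 36.3% of 25063 such probe sets did. At 5 of the 14 both steps exceeded 0.5, where 6.09% of all did. That step was chosen after the values were seen. The 5 were both probe sets of Dtx4, the dimmer one of Notch1, 1417985_at of Nrarp and the one of Hes1.

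WT 2 and HEB-KO 1 were also the arrays with the higher Ly6d readings given above and with the lowest hybridization control signal, 10.07 and 10.11 against 11.23 on WT 1, 11.42 on HEB-KO 2 and 11.32 to 12.51 on the E2A-KO arrays. The mean log2 intensity of 7 B-lineage markers was 5.64 and 5.11 on these 2 arrays, with 5 and 4 of the 7 above the array median. It was 4.15 to 4.40 on the other 6 arrays, with 2 to 5 of the 7 above. Vpreb1 (8.42 and 6.67 against 3.78 to 4.64) and Ebf1 (6.90 and 5.79 against 2.32 to 4.36) were higher on these 2 arrays. Cd79b was just higher (7.73 and 7.69 against 6.77 to 7.63), whereas Cd79a, Pax5, Igll1 and Ms4a1 overlapped. The mean of 7 T-cell markers was 4.01 to 4.44 on all 8 arrays, with 4 or 5 of the 7 above. On the E2A-KO arrays, where Ly6d was high on arrays 1 and 4, Hes1 read 4.35 and 4.21 on those and 4.57 and 4.23 on the others. Nrarp 1417985_at read 5.03 and 4.94 against 4.40 and 5.0, Notch1 1418633_at 6.55 and 6.74 against 6.36 and 6.61, Dtx4 1436545_at 5.96 and 5.67 against 5.67 and 5.73, and Dtx4 1455711_at 5.79 and 6.68 against 6.55 and 5.45. The high-Ly6d and low-Ly6d arrays overlapped for all 5. The part that these measures have in the results for the members was not tested. Without WT 2 and HEB-KO 1 the Notch1 difference between E2A-KO and WT was -1.95 (adjusted p = 0.498, no gene called of all tested).

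**Figure D3:**
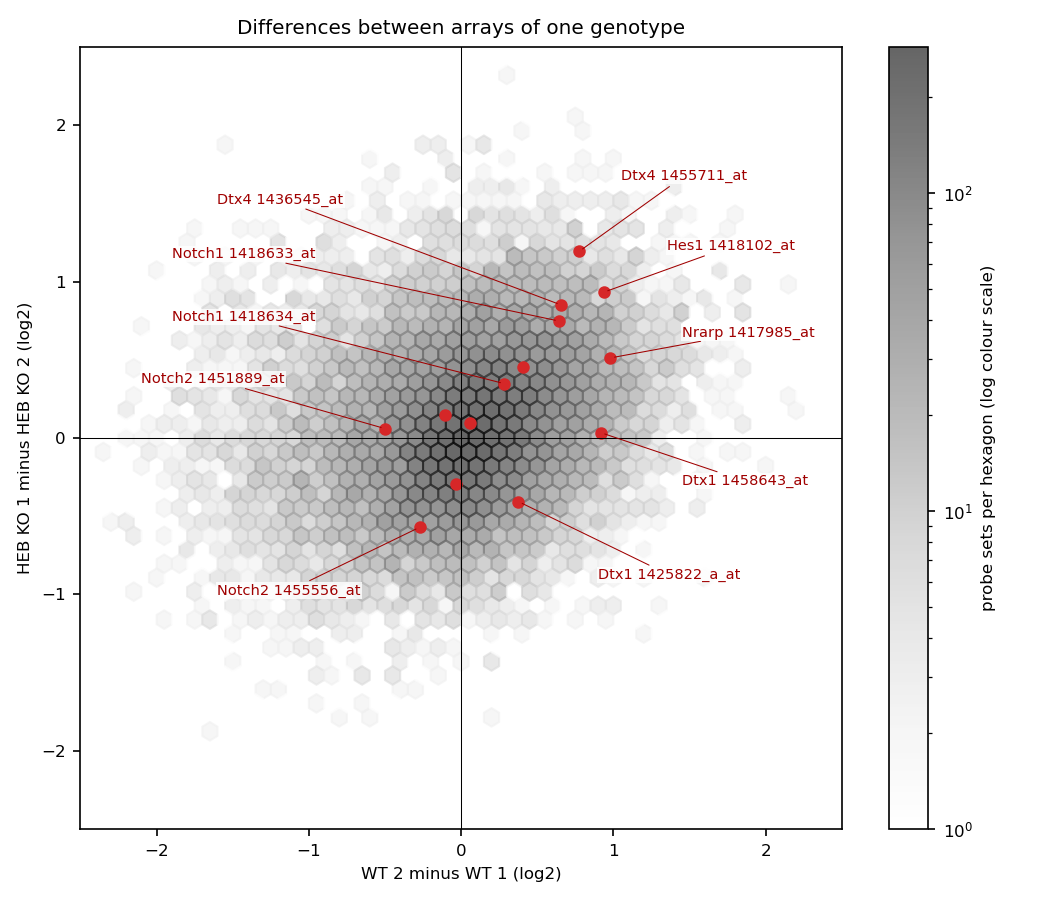
Difference between the WT arrays (x) and between the HEB-KO arrays (y), both log2, for 25063 probe sets above the array median on at least 2 arrays (grey hexagons) and for 14 member probe sets (red). Probe sets of Dtx4, Hes1 and Nrarp and the dimmer one of Notch1 lie in the upper right, and 42 probe sets fall outside the axes.

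Other genes of the pathway were taken from 5 lists by role, with 61 genes listed, 55 named on this array and 46 tested. No gene of the lists was called by limma in any of the 3 comparisons, where 0.443% (E2A-KO against WT), 0% (HEB-KO against WT) and 0.117% (E2A-KO against HEB-KO) of all genes were. At an unadjusted p under 0.05 there were 6, 0 and 9 of the 46 in that order, where 13.4%, 2.61% and 16.5% of all genes were, so the lists were near the background. The median difference over the 46 was -0.16 in E2A-KO against WT (30 negative, 16 positive), 0.04 in HEB-KO against WT and -0.17 in E2A-KO against HEB-KO. Over all genes those medians were -0.05, 0.09 and -0.16.

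Of the ligands, 3 of 5 were tested. Jag2 read 4.90 to 5.69 over the 8 arrays, with a difference of 0.00 in E2A-KO against WT, and the others were dimmer. Dll4, the ligand that drives Notch1 in the thymus, differed by -0.34 in E2A-KO against WT, and Dll1, a ligand used by Notch2 in the spleen, by 0.22. Their adjusted p-values were 0.520 and 0.655. The second Dll4 probe set differed the other way, by 0.47, with all E2A-KO arrays (3.41 to 4.02) above both WT arrays (3.27 and 3.31), and did not pass either (adjusted p = 0.494 over all probe sets).

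The processing genes, which glycosylate and cut the receptors, had a median of -0.22 over 13 tested. Mfng, a Fringe enzyme that adds a sugar to Notch and alters which ligand it answers, read 7.68 ± 0.18 in WT, 8.01 ± 0.19 in HEB-KO and 6.78 ± 0.20 in E2A-KO cells. The E2A-KO arrays lay below all others in both comparisons. The differences were -0.90 from WT (SE 0.22, adjusted p = 0.131) and -1.23 from HEB-KO cells (SE 0.22, adjusted p = 0.0847). Aph1b, a subunit of gamma-secretase, differed from WT by -1.0 (SE 0.25, adjusted p = 0.139), at a dim probe set that read 3.16 ± 0.29 without E2A, and its other probe set differed by -0.14 with the groups overlapping.

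The nuclear partners had the lowest median of the lists in E2A-KO against WT, -0.44 over 10 tested, with 9 negative. Crebbp, an acetyltransferase recruited by the Notch complex, differed by -0.82 (SE 0.35, adjusted p = 0.356) and Kdm5a, a histone demethylase that sits with RBPJ at silent targets, by -0.47 (SE 0.22, adjusted p = 0.398). Their other probe sets ranged from -0.58 to 0.31 for Crebbp and from -1.01 to 0.39 for Kdm5a. The lowest value of the list, -1.16 for Kat2b, had an E2A-KO spread of 1.04 (SD, n = 4). Against HEB-KO cells all 10 were negative, with a median of -0.30.

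The turnover and trafficking genes had a median of -0.02 over 13 tested. Dtx3, another Deltex family member, differed by -0.68 (SE 0.22, adjusted p = 0.250) and Itch, an E3 ligase that acts on Notch, by -0.58 (SE 0.25, adjusted p = 0.365), with -0.25 to -0.08 at the other Itch probe sets. The other targets had a median of 0.15 over 7 tested of 14. Gata3, which T-cell progenitors need, differed by 0.63 (SE 0.32, adjusted p = 0.418) at a dim probe set. It read 3.51 and 3.70 in WT and 3.82 to 4.89 in E2A-KO cells, above the array median on 3 of the 8 arrays. Heyl, a Hairy-related repressor, differed by 0.25 (SE 0.21, adjusted p = 0.615). The other Heyl probe sets, below the array median on all arrays, differed by -0.27, with all E2A-KO arrays below both WT arrays, and by 0.09.

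**Figure D4:**
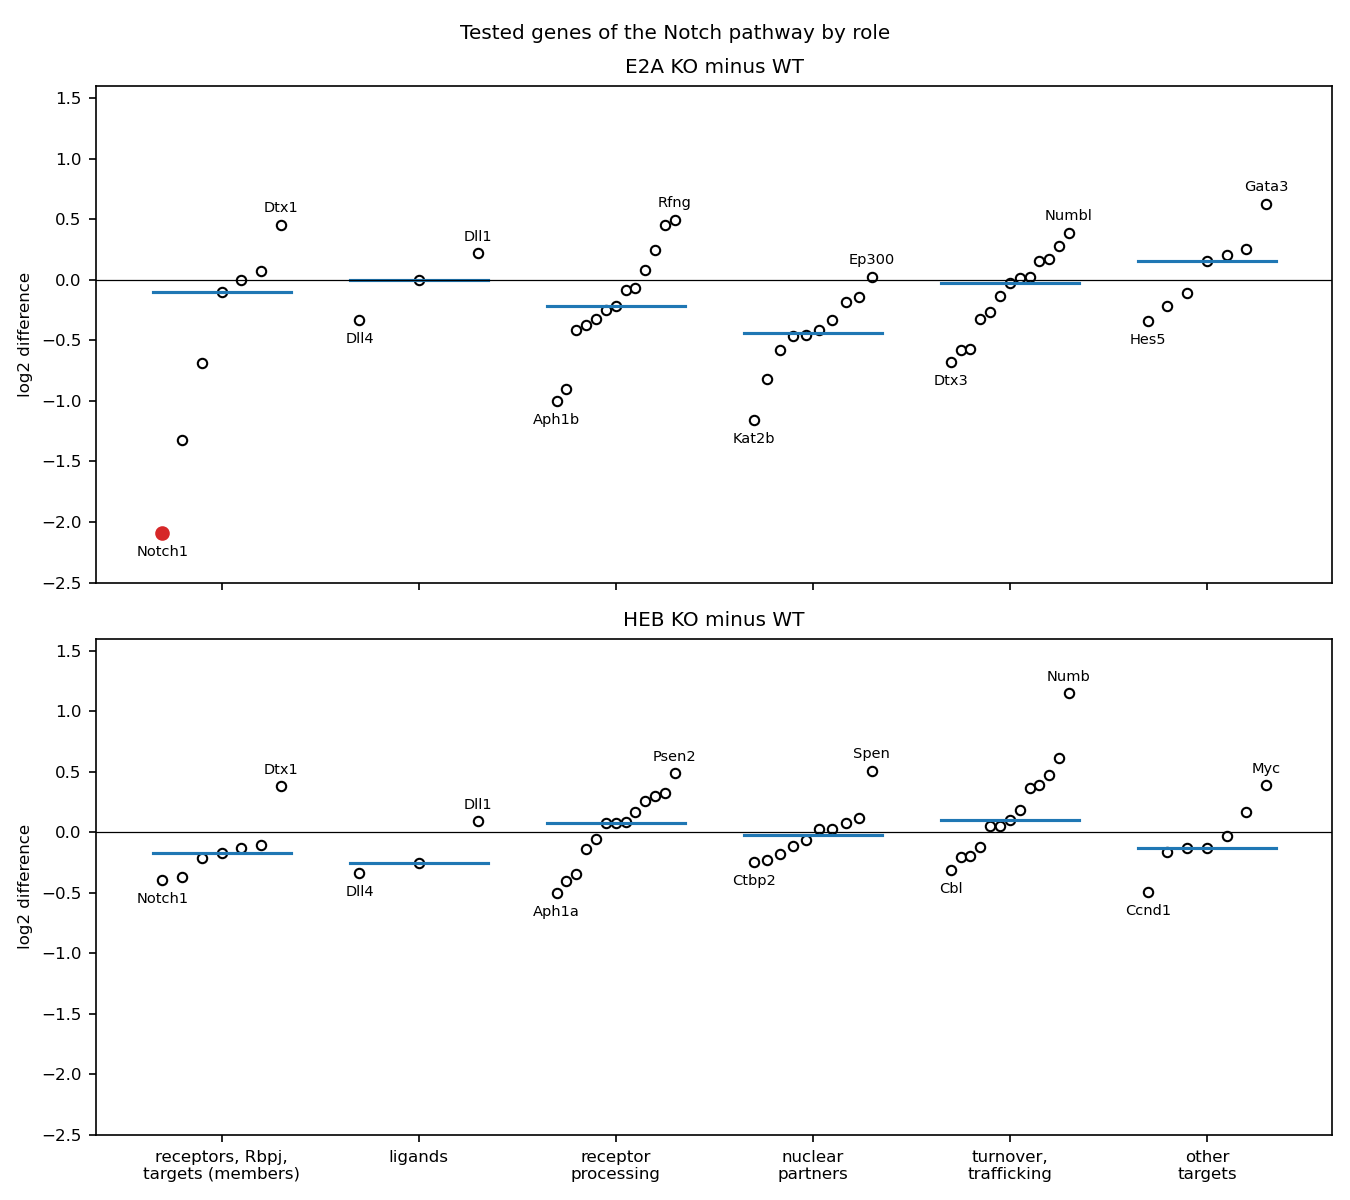
Log2 differences of the tested members and of the tested genes of 5 pathway lists, in E2A-KO against WT (top) and HEB-KO against WT (bottom); bars are medians and the extreme genes of each list are named. Notch1 at -2.09 (filled) is the lowest point and the only call, and the bottom panel holds no call.

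Likeness to Notch1 was measured as the root mean square difference in log2 intensity over the 8 arrays, after centring each gene on its WT mean. The median over all genes tested was 1.51. The 5 nearest were Cdk19 (0.220), Arhgef3 (0.268), Egfl7 (0.287), Foxo1 (0.294) and Nabp1 (0.304). Their differences in E2A-KO against WT were -1.95, -1.90, -2.01, -2.19 and -2.17 in that order, and they were picked for following Notch1, so these are descriptions.

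Egfl7, which encodes a secreted protein of blood vessels that can bind Notch, is the next protein-coding gene to Notch1 on its chromosome in the RefSeq order of GRCm38.p6. The 5 protein-coding genes on either side were therefore read, a choice made after the values were seen, and 8 of the 10 were tested. Egfl7 read 8.74 and 9.69 in WT, 9.41 and 8.59 in HEB-KO, and 7.25, 6.86, 7.41 and 7.31 in E2A-KO cells. Every E2A-KO array was below the 4 others, while the WT and HEB-KO arrays were each spread by more than 0.8.

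Egfl7 differed from WT by -2.01 in E2A-KO cells (SE 0.34, adjusted p = 0.0507), which just missed the threshold, at a probe set of a kind (_x_at) that may also read related transcripts. Beyond it, Agpat2, an enzyme of phospholipid synthesis, differed by -0.95 (SE 0.28, adjusted p = 0.193), and Dipk1b by -1.13 (SE 0.19, adjusted p = 0.0507). Dipk1b was even between arrays, at 9.13 and 9.29 in WT, 9.24 and 9.25 in HEB-KO, and 8.23, 7.96, 8.06 and 8.05 in E2A-KO cells. On the other side of Notch1, Sec16a, Inpp5e, Pmpca, Entr1 and Snapc4 differed by -0.18, 0.00, 0.19, 0.45 and -0.08. In HEB-KO cells Egfl7, Agpat2 and Dipk1b differed from WT by -0.22, -0.08 and 0.03. None of the 8 neighbours was called in E2A-KO against WT, where 0.443% of all genes were, and their median was -0.13.

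**Figure D5:**
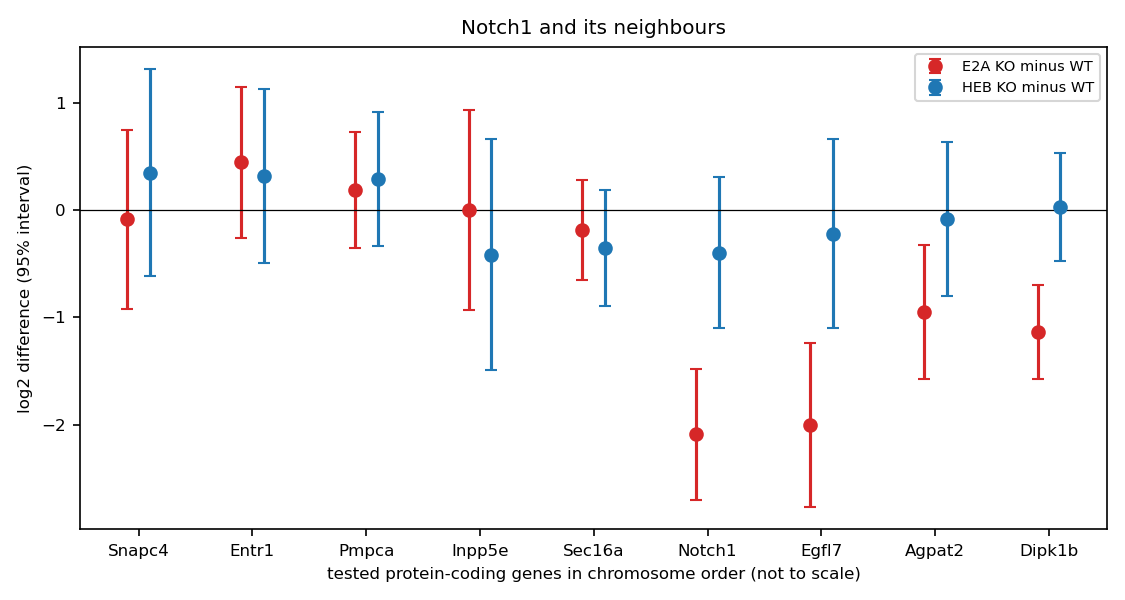
Log2 differences from WT with 95% intervals for Notch1 and its 8 tested protein-coding neighbours in chromosome order, spacing not to scale. In E2A-KO cells (red) Notch1, Egfl7, Agpat2 and Dipk1b lie at -2.09, -2.01, -0.95 and -1.13, and the 5 genes on the other side between -0.18 and 0.45.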

How the data were processed

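RNA of sorted, pooled progenitors was labelled after more than 1 round of amplification, per the labels' protocols, which favours the 3′ ends of transcripts, and hybridised to 8 arrays. The deposited values are linear intensity values per probe set made with RMA, per the submitters' processing notes; the RMA version is not stated there. Values were log2-transformed without further normalization. Depth in reads does not apply; the number of arrays limits precision.

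Genes were named through the platform's annotation: of 45101 probe sets 64 were controls, 34945 had 1 symbol, 932 several and 9160 none. A gene was its probe set with the highest mean, tested if above the array median on at least 2 arrays. A limma fit (version 3.58.1, R 4.3.3; all 8 arrays, a mean per genotype, two-sided) gave p-values, adjusted by Benjamini-Hochberg over all genes, threshold 0.05; a second fit took all 45037 probe sets. "Fell" and "called" refer to these. The fit over genes was tested on simulated data, and the fit over all probe sets was not.

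The members and lists were chosen with earlier results of these data known. Members, the targeted genes, Notch4, the 2 pathway genes per list with the smallest p in E2A-KO against WT, and the 5 genes most like Notch1 were named; Kat2b and the Notch1 neighbours were added after values were seen. Marker lists covered CLP and T, B, myeloid, plasmacytoid dendritic and erythroid cells. Alternatives changed the filter, normalization, gene value, variance model, arrays, block and covariate. Promoters were searched on both strands.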

Additional observations from a re-analysis of the deposited data

Results flagged for a closer look

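In groups of 4 to 10 samples the highest or lowest array was set against the range of its group, which only the 4 E2A-KO arrays allow. Over 16 probe sets 3 readings on 2 of these arrays stood apart: Nrarp 1417985_at on E2A-KO 2 at 4.40 (low), Notch2 1451889_at on E2A-KO 3 at 4.79 (high) and Rbpj 1454896_at on E2A-KO 3 at 8.25 (low). Chance alone marks about 1 in 20 groups in this way.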

How the results depend on the processing

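Notch1 kept its negative difference in E2A-KO against WT under every alternative run (-2.23 to -1.95 over single arrays left out), but it did not pass under all. It did not pass for the mean of probe sets (-1.36) or with the hybridization control covariate (-1.75, 1 gene called of all tested), and members called were then 0. It also did not pass without WT 2 and HEB-KO 1, chosen after seeing the data (-1.95). Nor did Notch1 pass without WT 1 alone (-2.23) or without WT 2 alone (-1.95), as described above. With the replicate numbers as a block it was -2.06, members and member probe sets called were 0, and genes called were 12. Deviations of same-numbered WT and HEB-KO arrays correlated at -0.277, and those of HEB-KO 1 and E2A-KO 1 at 0.148. With 2 arrays each in WT and HEB-KO the deviations mirror each other. The former value thus cannot settle whether the numbers pair the arrays. The crossed block gave 8 genes and 0 members in E2A-KO against WT, and 0 genes in E2A-KO against HEB-KO.

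Genes called in E2A-KO against WT were 53 as reported, 91 with trend and robust variance, 26 with only the compared genotypes, and 2 to 104 with single arrays left out (7 without WT 1, 2 without WT 2, 20 without E2A-KO 2, 26 without either HEB-KO array, 35 without E2A-KO 1, 104 without E2A-KO 3); members called were 0 to 1. Member probe sets called were 0 without any one array and without WT 2 and HEB-KO 1. Genes called in E2A-KO against HEB-KO were 14, and 42, 6, 3, 1 and 0 with trend and robust variance, only the compared genotypes, the block, the covariate, and those 2 arrays left out, and 1 to 21 with single arrays left out; members called were 1 with trend and robust variance. In HEB-KO against WT none was called under any alternative. The causes were not tested. Of the values of uncalled members 15 of 105 changed sign in E2A-KO against WT, 8 of 123 in HEB-KO against WT and 17 of 123 in E2A-KO against HEB-KO. Median centring moved the median of all genes from -0.05 to -0.11 in E2A-KO against WT and from -0.16 to -0.26 in E2A-KO against HEB-KO, and loess moved them to 0.00 and -0.03.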
